A study of Gallus gallus with 6 samples.

Results

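Ephrins and Eph receptors of retinal topography were followed in sorted chick retinal cells treated with retinoic acid (RA). The members were 10 symbols listed by name: the ligands EFNB2, EFNB1, EFNA2 and EFNA5 and the receptors EPHB2, EPHB3, EPHA3, EPHA4, EPHA5 and EPHA7. The deposited count table has 6789 gene symbols, and 9 of the 10 members were found in it, 4 ligands and 5 receptors. EPHB3, which RefSeq also calls CEK10 and EK10, matched no row under any of these names and was not analysed here. All 9 passed the filter on low counts and were among the 5041 genes tested.

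The RA group consisted of 3 libraries from retinas cultured for 8 h with 2.5 µM RA, and the control group of 3 libraries from retinas cultured for the same time with the solvent DMSO. Both groups were taken on embryonic day 5, and in both the cells were sorted by flow cytometry as positive for Hes5.3, a Notch-responsive Hes gene. Each library came from 2 retinas of different embryos, and each control library used the contralateral eyes of the embryos behind its RA library, so the libraries formed 3 pairs, numbered 1, 3 and 4. How Hes5.3 was detected in the sort, and whether the pairs were cultured and sorted on separate days, is not given in the sources used here. The sex of the embryos is not given either.

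Eph receptors are receptor tyrosine kinases, and ephrins are their membrane-bound ligands. A-class ephrins are held by a lipid anchor and bind mostly EphA receptors, whereas B-class ephrins span the membrane and bind mostly EphB receptors. Signals run both into the receptor-bearing and into the ephrin-bearing cell. In the chick retina the B class is known for gradients along the dorsoventral axis, with ephrin-B1 and ephrin-B2 high dorsally and EphB2 and EphB3 high ventrally. Of the A class, EphA3 is known to be high temporally and ephrin-A2 and ephrin-A5 nasally, and these gradients help retinal axons to find their place in the optic tectum. In the embryonic eye RA is made dorsally and ventrally and is broken down by CYP26A1 in a band between.

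Total counts were between 19808063 and 27235633 per library. Levels are given as CPM, counts put on a per-megaread scale after TMM scaling of the library sizes, and they are not divided by transcript length, so they can be compared between libraries for 1 gene but not between genes. All 14 retinal progenitor markers listed passed the filter, and summed to between 13207 and 16401 CPM in the RA libraries and between 11951 and 13767 CPM in the control libraries. Of these markers 2 were called higher with RA, NR2E1 (log2 fold change 0.39, adjusted p = 0.00386) and SFRP1 (0.38, adjusted p = 0.00578), and 6 had an unadjusted p under 0.05. For this and the lists below, 1.07% of all genes tested were called and 8.89% had an unadjusted p under 0.05. Among the 6 was PAX6, with the RA value below the control value in each pair (log2 fold change -0.14, adjusted p = 0.557). SIX6 (0.22), NOTCH1 (0.26) and HES5 (0.27), also among the 6, were higher with RA in each pair and not called by edgeR. Of the 14 markers, 11 had fitted changes above 0. With no pair term the adjusted p was 0.594 for NR2E1 and 0.936 for SFRP1, and without pair 3 it was 0.0665 for each. DESeq2 also called NOTCH1. Of 20 ganglion cell markers listed, 14 were in the table. They summed to between 1507 and 1682 CPM in the RA libraries and between 1502 and 1660 CPM in the control libraries, with L1CAM at 0 counts. The tools edgeR, limma-voom and DESeq2 each called 0 of the 12 tested, with 2 at an unadjusted p under 0.05. By edgeR these 2 went opposite ways. ELAVL4 was lower with RA in each pair (log2 fold change -0.28, adjusted p = 0.222). ISL1, with 0 to 54 counts per library, was higher in each pair (1.75, adjusted p = 0.562). Lens markers summed to between 72.8 and 103.7 CPM in the RA libraries and between 68.3 and 83.3 CPM in the control libraries, pigment epithelium markers to between 49.2 and 53.5 CPM and between 43.0 and 49.4 CPM, and mesenchyme markers to between 28.0 and 54.7 CPM and between 27.6 and 39.8 CPM. Of these 3 lists POSTN, a matrix protein in the mesenchyme list, was the 1 gene called, higher with RA (log2 fold change 1.19, edgeR adjusted p = 0.00753), while DCN and TTR had 0 counts. Of the lens markers 2 of the 8 tested had an unadjusted p under 0.05, ASL1 (log2 fold change 0.57, adjusted p = 0.181) and CRYAA (1.12, adjusted p = 0.458). CYP26A1, the RA-degrading enzyme and a standard RA target, averaged 3043 ± 813 CPM in the RA libraries and 80.3 ± 6.36 CPM in the control libraries (SD, n = 3 each), and DHRS3 and RARB, also known RA targets, were called higher too.

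The ligand EFNB2 and the receptor EPHB2, both of the B class, were called higher with RA, the EPHB2 call depending on the pairs included. EFNB2 was 2.29-fold and EPHB2 1.48-fold higher in the RA libraries. The other 7 members measured did not pass the test, and each of their fitted changes lay between a log2 fold change of -0.17 and 0.28. A call here is a Benjamini-Hochberg adjusted p under 0.05 over the 5041 genes, from edgeR's quasi-likelihood test with the pair as a block. By that rule 2 of the 9 members were called, both higher with RA, where 1.07% of all genes tested were called in either direction and 0.952% as higher. At an unadjusted p under 0.05 there were also 2 members, against 8.89% of all genes. The members and the gene lists were chosen with earlier results of these data known, so these shares do not test them.

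**Figure D1:**
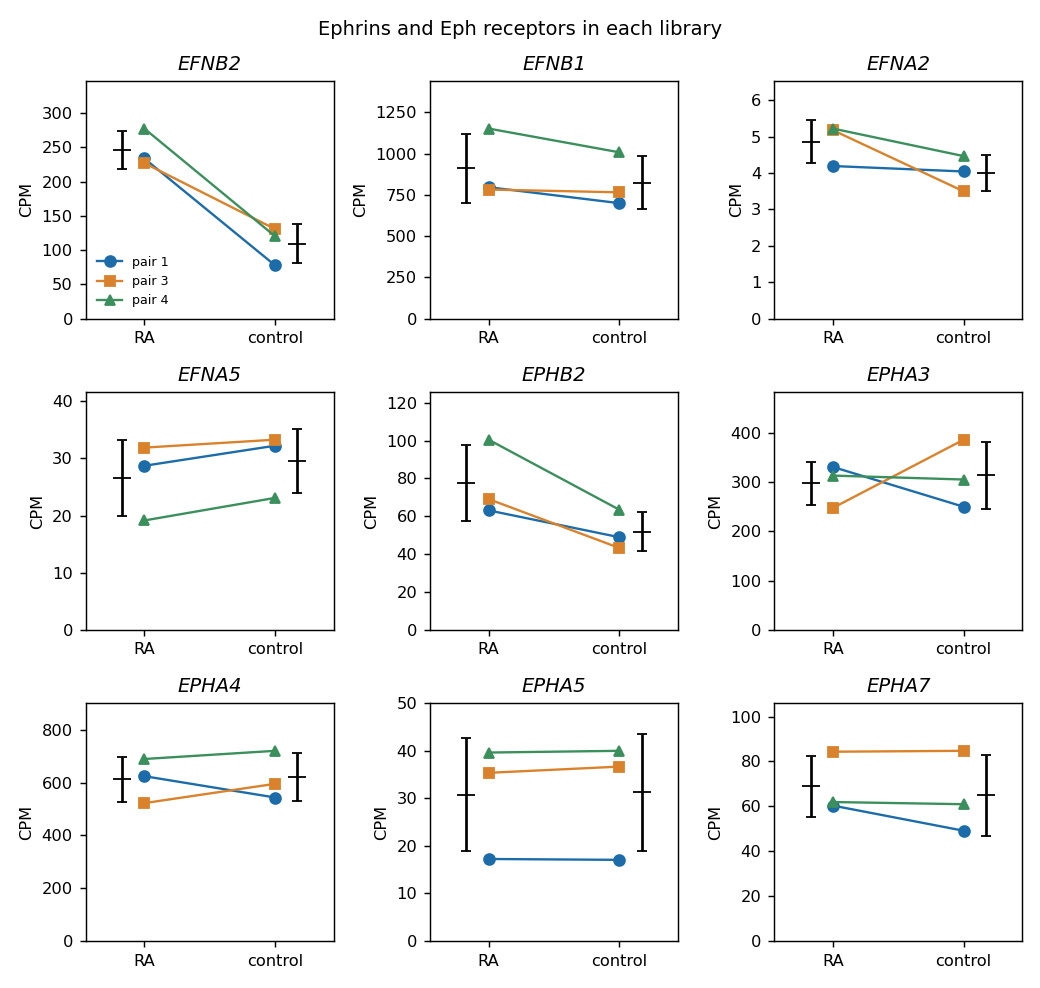
Level of each ephrin and Eph receptor in CPM (vertical axes, each starting at 0) in RA and control libraries, with a line joining the libraries of each pair and black bars for the mean ± SD of 3 libraries. EFNB2 is higher in all 3 RA libraries than in any control library, EPHB2 is higher with RA in each pair, and the EPHA5 lines are nearly flat but far apart.

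EFNB2 encodes ephrin-B2, a transmembrane ligand that is high in the dorsal retina. It measured 234, 227 and 277 CPM in the RA libraries of pairs 1, 3 and 4, against 77.7, 131 and 120 CPM in the control libraries of the same pairs. The 3 RA values lay above the 3 control values with no overlap, and EFNB2 was the only one of the 9 members of which this was so, where 7.48% of all genes tested had groups that did not overlap. These levels rest on between 1845 and 6516 counts per library, for which counting error is at most 2.33%.

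The RA library of EFNB2 stood 201% above the control library in pair 1, 73.6% above it in pair 3 and 131% above it in pair 4. The fit gave a log2 fold change of 1.20 ± 0.11 (SE), with a 95% interval of 0.95 to 1.44 and an edgeR adjusted p of 2.22e-05. By p-value EFNB2 ranked 7 among the 5041 genes, and by the size of its fitted change it ranked 93. In the authors' deposited table, which rests on the same libraries, EFNB2 has a log2 fold change of 1.19 and an adjusted p of 0.00182. The control library of pair 1, with the lowest EFNB2 level, also had the fewest sorted cells, 57000. Without pair 1 the log2 fold change of EFNB2 was 1.00 (edgeR adjusted p = 5.45e-07). Whether cell number goes with the EFNB2 ratio was not tested.

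Ephrin-B2 is also made by arterial endothelium, so the endothelial and blood genes were read beside it. CDH5, an endothelial cadherin, lay between 0 and 0.0856 CPM in the RA libraries and between 0 and 0.875 CPM in the control libraries. CLDN5, an endothelial tight-junction gene, lay between 1.08 and 3.59 CPM in the RA libraries and between 0.885 and 4.33 CPM in the control libraries. GATA1 and HBE, of the red cell line, had 0 counts in all 6, whereas TAL1 had 0 to 16 counts per library and HBAA 0 to 3. CDK5, a kinase of the signalling list below named with its value known, also had 0 counts in all 6. Counts of 0, also those of L1CAM, DCN and TTR above, thus do not by themselves show that a cell type was absent. The blood and vessel list, 12 genes in the table, summed to between 14.4 and 26.8 CPM in the RA libraries and between 12.9 and 18.9 CPM in the control libraries. Of its 3 tested genes, LMO2, a transcription cofactor of blood and vessel cells, measured 11.6, 12.6 and 8.65 CPM in the RA libraries of pairs 1, 3 and 4, against 9.77, 9.07 and 7.53 CPM in the control libraries. PTPRC, the leukocyte antigen CD45, averaged 5.32 CPM in the RA libraries and 3.77 CPM in the control libraries, and in pair 3 it measured 9.69 CPM with RA against 4.603 CPM in the control. All 3 had fitted changes above 0 (median log2 fold change 0.28), 0 were called, and 0 had an unadjusted p under 0.05, by edgeR, limma-voom or DESeq2. The part of these cells in the level of EFNB2 was not tested.

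EFNB1 encodes ephrin-B1, the other B-class ligand of the dorsal retina. It measured 796, 782 and 1152 CPM in the RA libraries of pairs 1, 3 and 4, against 700, 765 and 1008 CPM in the control libraries. The groups overlapped, since both libraries of pair 4 lay above all others. EFNB1 was higher with RA in each pair, by 13.8%, 2.21% and 14.3% in pairs 1, 3 and 4, but it was not called (log2 fold change 0.14 ± 0.07 SE, 95% interval -0.0032 to 0.28, edgeR adjusted p = 0.575).

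The balance of the B-class ligands does not depend on how libraries are scaled, because both genes are counted in the same library. Counts of EFNB2 per count of EFNB1 were 0.293, 0.290 and 0.241 in the RA libraries of pairs 1, 3 and 4, against 0.111, 0.171 and 0.119 in the control libraries. The ratio was thus higher with RA in all 3 pairs, by 2.64-fold, 1.70-fold and 2.02-fold, with a mean log2 change of 1.06 ± 0.32 (SD, n = 3 pairs). The exact 2-sided sign-flip permutation test over pairs gave p = 0.25, which is the smallest p that 3 pairs allow. Any 3 pairs that go one way give this p, so the test cannot decide.

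EPHB2 encodes the EphB2 receptor, a ventral-high partner of the B-class ligands. It measured 63.1, 69.1 and 100.4 CPM in the RA libraries of pairs 1, 3 and 4, against 48.9, 43.2 and 63.4 CPM in the control libraries. The groups overlapped, as the control library of pair 4 lay above the RA library of pair 1, yet the RA library was higher in each pair, by 29.0%, 59.8% and 58.3%. In the fit the log2 fold change came to 0.57 ± 0.11 (SE), with a 95% interval of 0.34 to 0.79 and an edgeR adjusted p of 0.00986. Between 939 and 2346 counts per library stood behind these levels.

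The call of EPHB2 depended on pairs 3 and 4. Without pair 3 its log2 fold change was 0.52 with an edgeR adjusted p of 0.0875, and without pair 4 it was 0.53 with 0.0539. Without pair 1 it was 0.67 with 0.00139, and stayed called. With no term for the pair the change was 0.58 and the adjusted p 1.00, against 0.0158 unadjusted, as differences between pairs enter the error of that fit. The authors' deposited paired comparison gives EPHB2 a log2 fold change of 0.56, an unadjusted p of 0.00359 and an adjusted p of 0.416. In it 12 of 4752 genes had an adjusted p under 0.05. EFNB2 was called without any 1 pair and without the pair term.

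**Figure D2:**
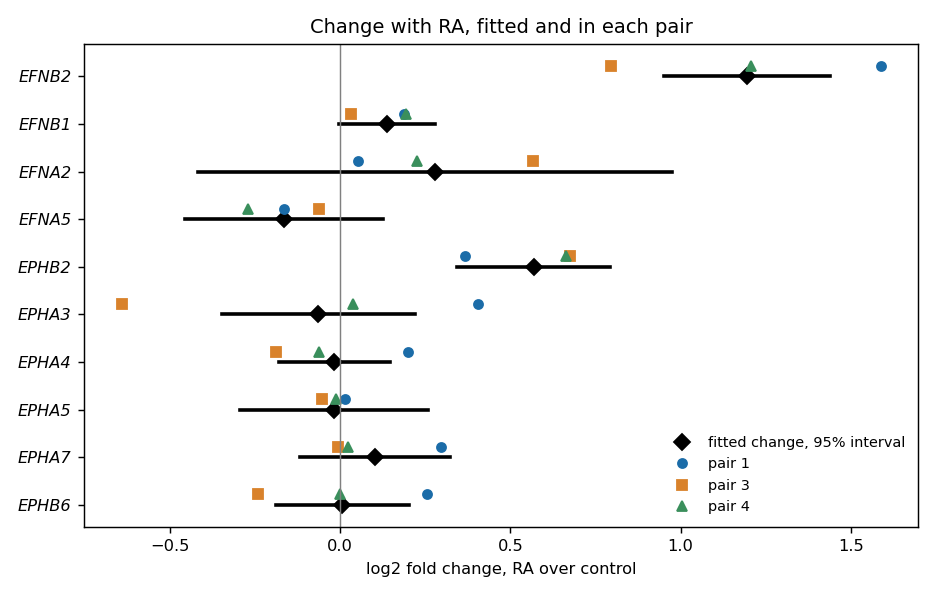
Log2 fold change of RA over control (horizontal axis) for each ephrin and Eph receptor tested, with black diamonds and lines for the fitted change and its 95% interval and coloured points for each pair. EFNB2 and EPHB2 have intervals above 0, and EPHA3 has pairs on opposite sides of 0.

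Among the A-class ligands, ephrin-A2 and ephrin-A5 are both high in the nasal retina and in the posterior tectum of the chick. EFNA2 measured 4.19, 5.18 and 5.22 CPM in the RA libraries of pairs 1, 3 and 4, against 4.04, 3.50 and 4.47 CPM in the control libraries. It was higher with RA in each pair, but its groups overlapped and it was not called (log2 fold change 0.28 ± 0.33 SE, edgeR adjusted p = 0.870). With 76 to 122 counts per library, EFNA2 was the least counted member, and its 95% interval, -0.42 to 0.98, does not exclude changes of the size seen in EPHB2.

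EFNA5 measured 28.7, 31.9 and 19.1 CPM in the RA libraries of pairs 1, 3 and 4, against 32.2, 33.3 and 23.1 CPM in the control libraries. It was the only one of the 9 members with the RA value below the control value in all 3 pairs, with differences of -10.9%, -4.17% and -17.1% in pairs 1, 3 and 4, while pair 4 had the lowest values in both groups. The fitted change was not called (log2 fold change -0.17 ± 0.14 SE, 95% interval -0.46 to 0.12, edgeR adjusted p = 0.800). Altogether 5 of the 9 members went in the same direction in the 3 pairs, 4 higher and 1 lower, where 30.0% of all genes tested did so.

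The edgeR test called 0 of the 4 EphA receptors, with 0 at an unadjusted p under 0.05 and 0 called by limma-voom or DESeq2, and their fitted log2 fold changes were between -0.06 and 0.10. EPHA3, the receptor with a temporal-high gradient in the chick, measured 331, 248 and 313 CPM in the RA libraries of pairs 1, 3 and 4, against 250, 386 and 305 CPM in the control libraries. Its pairs disagreed: the RA library differed from the control library by 32.3% in pair 1, -35.9% in pair 3 and 2.62% in pair 4. The log2 ratios were 0.40, -0.64 and 0.04, the widest range among the 9 members, and counting error on EPHA3 was at most 1.44%. The fit gave -0.06 ± 0.13 (SE, edgeR adjusted p = 0.938), and without pair 3 the value was 0.22 (adjusted p = 0.721).

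EPHA4 encodes a receptor that binds ephrins of both classes. It measured 624, 522 and 689 CPM in the RA libraries of pairs 1, 3 and 4, against 543, 595 and 720 CPM in the control libraries. The groups overlapped widely, and the 95% interval of the log2 fold change, -0.18 to 0.15, is the narrowest among the EphA receptors (fitted value -0.02 ± 0.08 SE, edgeR adjusted p = 0.978). EPHA7, another A-class receptor, measured 60.3, 84.3 and 61.9 CPM in the RA libraries, against 49.1, 84.7 and 60.9 CPM in the control libraries of the same pairs. Its RA library stood 22.8% above the control in pair 1, while the libraries of pairs 3 and 4 differed by -0.468% and 1.59% (log2 fold change 0.10 ± 0.10 SE, edgeR adjusted p = 0.847).

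EPHA5 encodes an A-class receptor that chick retinal ganglion cells are known to carry. Its level was almost the same in the libraries of a pair and far apart between pairs. It measured 17.2, 35.4 and 39.6 CPM in the RA libraries of pairs 1, 3 and 4, against 17.1, 36.7 and 40.0 CPM in the control libraries. The RA library differed from the control library by 1.06%, -3.56% and -0.902% in these pairs, less than the counting error of 4.97% at the lowest count of 405. Between pairs, the mean of both libraries was 2.32-fold higher in pair 4 than in pair 1. The fitted change with RA was -0.02 ± 0.13 (SE, 95% interval -0.29 to 0.26, edgeR adjusted p = 0.986).

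How far the members varied between pairs was tested in the same fit, by an F-test of the pair terms adjusted over all genes. It called 6 of the 9 members, where 13.6% of all genes tested were called: EPHA5 (edgeR adjusted p = 0.000451), EFNB1 (0.000796), EPHA7 (0.00845), EPHB2 (0.0124), EFNA5 (0.0394) and EPHA4 (0.0468). EFNB2 (0.1001), EPHA3 (0.859) and EFNA2 (0.901) were not called. With median-of-ratios scaling EPHA4 was not called (0.0596), and with no filter EFNB2 was called (0.0326). EFNA5 lies on chromosome Z, and the sex of the embryos is not given. Any part of sex in its difference was not tested. Neither the highest nor the lowest pair was the same from gene to gene. By the mean of both libraries pair 1 was lowest for EPHA5, EFNB1, EPHA7 and EPHB2, and for EFNB2, EPHA3 and EFNA2, which were not called. Pair 3 was lowest for EPHA4. Pair 4 was highest for EPHA5, EFNB1, EPHB2 and EPHA4, pair 3 was highest for EPHA7 and EFNA5, and pair 4 was lowest for EFNA5. The highest pair exceeded the lowest 1.44-fold for EFNB1, 1.46-fold for EPHB2, 1.54-fold for EFNA5 and for EPHA7, and 1.26-fold for EPHA4.

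HES5, a Notch target of the same Hes family as the sort marker, also differed between pairs (edgeR adjusted p = 0.000127). It measured 24.9, 62.5 and 53.3 CPM in the RA libraries of pairs 1, 3 and 4, against 21.0, 51.9 and 43.8 CPM in the control libraries. HES5 was thus lowest in pair 1, as EPHA5 was. By the mean of both libraries pair 1 was lowest for the other members too, except EPHA4 and EFNA5. The highest pair exceeded the lowest only 1.09-fold for EPHA3 and 1.18-fold for EFNA2. For EFNB2 the RA library of pair 1 lay above that of pair 3. How many of all genes were lowest in pair 1 was not counted. Fewer cells were sorted for pair 1, 98000 for the RA and 57000 for the control library, against 161000 to 200000 for the other libraries. Both libraries of pair 1 also had less total RNA than any other library. Whether these go with the level of EPHA5 or of the other members was not tested. In bulk RNA, fewer cells of a type and less RNA per cell cannot be told apart.

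**Figure D3:**
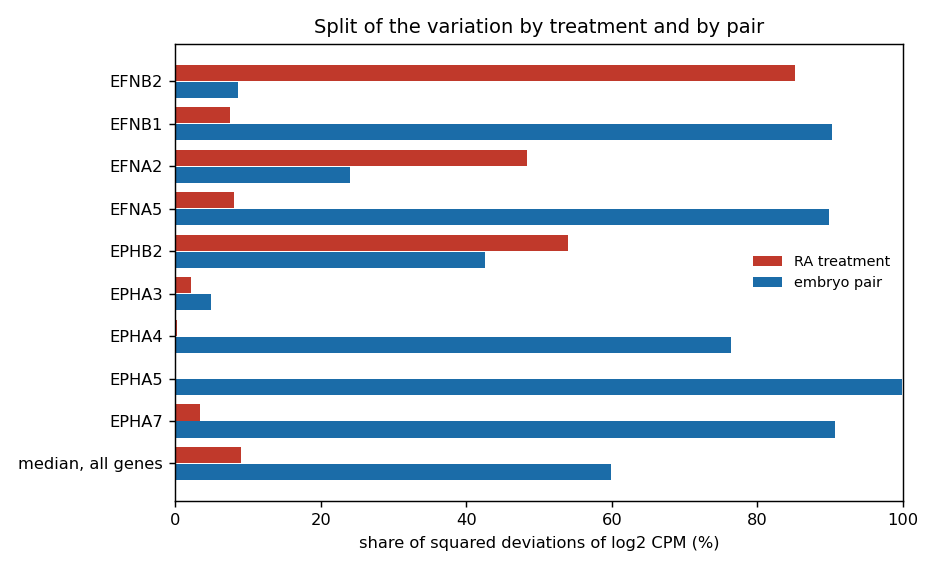
Share of the squared deviations of log2 CPM over the 6 libraries (horizontal axis, in percent) taken by the RA treatment (red, above) and by the embryo pair (blue, below) for each member, with the median of all genes tested at the bottom. Treatment takes 85.2% for EFNB2, and the pair takes 99.9% for EPHA5.

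Seen as shares of the squared deviations of log2 CPM, the treatment took 85.2% for EFNB2 and 54.0% for EPHB2, and the pair 8.56% and 42.6%. EFNA2, which was not called, had a treatment share of 48.3% and a pair share of 24.0%. For EFNB1, EFNA5, EPHA5 and EPHA7 the pair took between 89.8% and 99.9%. For EPHA3 the treatment and the pair together took little, 2.20% and 4.85%, the rest being disagreement between the libraries from pair to pair. The medians over all genes tested were 9.04% for the treatment and 59.9% for the pair. These shares describe 6 libraries and carry no test.

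The RA to control ratio was not the same in each pair. In 7 of the 10 family genes tested, the 9 members and EPHB6, the RA to control ratio was lowest in pair 3, where this held for 30.9% of all genes. The exceptions were EFNA2, EFNA5 and EPHB2. The family genes share the same libraries, with a single RA and a single control library per pair, so the count carries no test. For EPHA5 the differences within pairs were below counting error. The RA library of pair 3 was also the one with the lowest total count, 19808063. Called genes outside the family did not all share this order. CYP26A1 had its smallest log2 ratio in pair 3, at 4.96, against 5.18 in pair 1 and 5.50 in pair 4. BAMBI was also smallest in pair 3, at 0.37, and SFRP1 was smallest in pair 1, at 0.34. NGFR and NR2E1 had their largest ratios in pair 3, at 0.90 and 0.43. Whether the total count goes with these ratios was not tested.

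Of 12 further Eph and ephrin symbols looked up, 2 were in the table. EPHB6, for which RefSeq gives EPHB5 and CEK9 as other chick names, measured 217, 153 and 163 CPM in the RA libraries of pairs 1, 3 and 4, against 182, 181 and 163 CPM in the control libraries. It was not called (log2 fold change 0.01 ± 0.09 SE, 95% interval -0.19 to 0.20, edgeR adjusted p = 0.986). EPHA1 had 1 count in the RA library of pair 4 and 0 in the other 5 libraries, and was not tested. The other 10 were not analysed here.

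**Figure D4:**
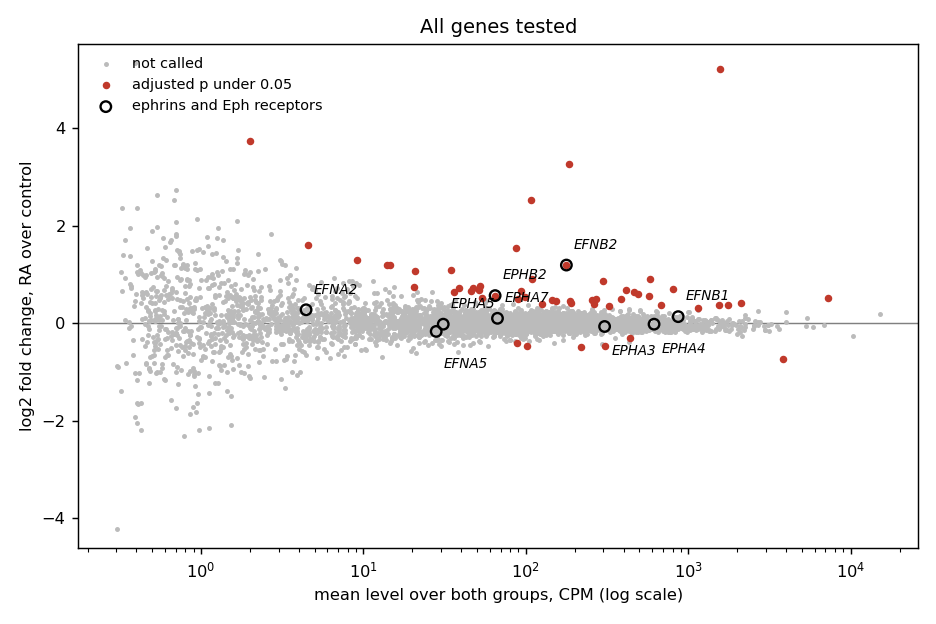
Log2 fold change of RA over control (vertical axis) against the mean level over both groups in CPM (horizontal axis, log scale) for the 5041 genes tested, with called genes in red and the members circled. EFNB2 and EPHB2 are the circled genes among the red points, and the other 7 lie near 0.

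Proteins that carry Eph and ephrin signals were read from a list of 68 symbols, among them kinases, exchange factors, adaptors and proteases. Of the 68, 37 were in the table and 34 were tested. The median log2 fold change was 0.0012 over the 34, against -0.0072 over all genes tested. Of the 34, 1 was called, where 1.07% of all genes tested were called. That gene was NGFR, the p75 neurotrophin receptor, known in the mouse as a partner of ephrin-A in retinal axons. It measured 58.4, 58.3 and 80.1 CPM in the RA libraries of pairs 1, 3 and 4, against 36.1, 31.3 and 48.6 CPM in the control libraries, with no overlap, as for 7.48% of all genes tested. Its log2 fold change was 0.77 ± 0.11 (SE, edgeR adjusted p = 0.0012), and with no pair term the adjusted p was 0.547.

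The next by p-value were SDCBP and SIPA1L1, neither of them called. SDCBP, or syntenin, an adaptor that binds the tail of B-class ephrins, had a log2 fold change of -0.31 ± 0.09 (SE, edgeR adjusted p = 0.132) with the RA library below the control library in each pair. SIPA1L1, a Rap regulator that binds EphA4, had 0.20 ± 0.08 (SE, edgeR adjusted p = 0.431) with the RA library above the control library in each pair.

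Regulators that set up the retinal axes formed another list of 39 symbols, with 22 genes in the table and 21 tested. Their median log2 fold change was 0.03, and 2 were called, both higher with RA, where 1.07% of all genes tested were called. Without pair 1 the count was 4, with no pair term it was 1, and DESeq2 called 3. The 2 were CYP26A1 (5.22 ± 0.10 SE, edgeR adjusted p = 2.14e-14) and BAMBI, a decoy receptor that dampens BMP signals (0.56 ± 0.07 SE, edgeR adjusted p = 0.000707). CYP26A1 is also the RA target read as a check above, and the list was chosen with earlier results known. The count is thus no test of the list. BAMBI measured 669, 583 and 808 CPM in the RA libraries of pairs 1, 3 and 4, against 428, 452 and 512 CPM in the control libraries, with no overlap, as for 7.48% of all genes tested. With no pair term the adjusted p of BAMBI was 0.290. FGF8, a growth factor of the early eye, was the next by p-value and was not called, at 0.55 ± 0.14 (SE, edgeR adjusted p = 0.107).

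Among the regulators not called, TBX5 and VAX1 are named with their values already known, for their known roles upstream of the B class. TBX5, the dorsal regulator that raises B-class ephrins when misexpressed in the chick retina, had a log2 fold change of -0.03, with a 95% interval of -0.32 to 0.26 (edgeR adjusted p = 0.978). It measured 24.6, 23.8 and 40.2 CPM in the RA libraries of pairs 1, 3 and 4, against 26.9, 26.3 and 35.6 CPM in the control libraries. VAX1, a homeobox gene of the ventral eye, had 0.24, with a 95% interval of -0.0343 to 0.51 (edgeR adjusted p = 0.632). In pairs 1, 3 and 4 VAX1 measured 36.8, 32.7 and 41.1 CPM with RA, against 30.5, 30.7 and 32.2 CPM in the controls. Its groups did not overlap, as was so for 7.48% of all genes tested. BMP2, also named with its value known, was higher with RA in each pair and not called. Its log2 fold change was 0.62 (edgeR unadjusted p = 0.0276, adjusted p = 0.469), and its groups overlapped. BMP4, of the same list and likewise named with its value known, was lower with RA in pairs 1 and 4 and higher in pair 3. It was not called (log2 fold change -0.23, edgeR adjusted p = 0.809). Whether TBX5, VAX1, BMP2 or BMP4 bears on EFNB2 or EPHB2 was not tested.

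**Figure D5:**
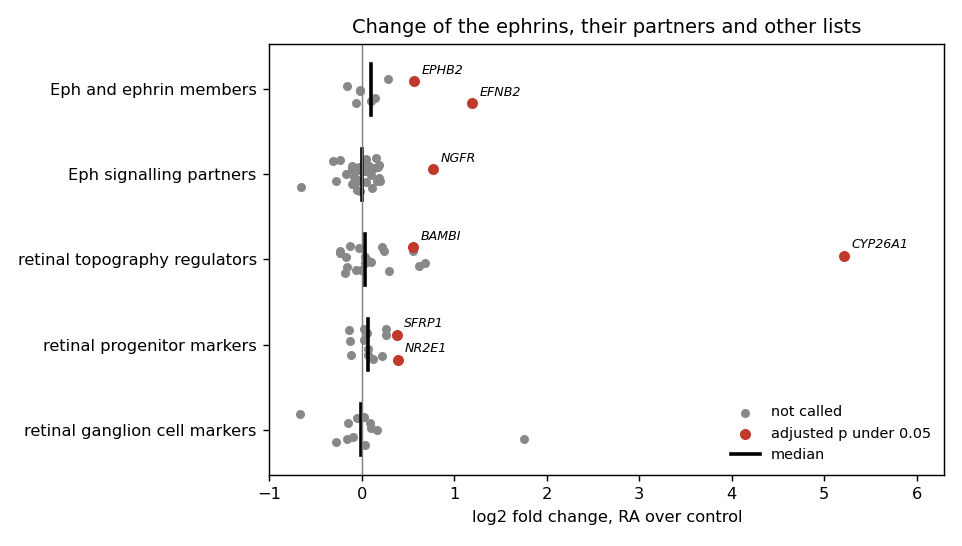
Log2 fold change of RA over control (horizontal axis) for the tested genes of 5 lists, with called genes in red and named, and a black line for each list's median. EFNB2, EPHB2, NGFR, BAMBI, CYP26A1, SFRP1 and NR2E1 are the called genes, all to the right of 0.

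Genes whose levels followed EFNB2 most closely over the 6 libraries were looked up by Pearson's r of log2 CPM. They were AKAP2 (0.983), AMBP (0.981) and YTHDF3 (0.971). The 6 libraries share 3 pairs and 1 treatment, so these values describe likeness only. AKAP2, a protein kinase A anchoring protein, was itself called higher with RA (log2 fold change 0.36, edgeR adjusted p = 0.0114), whereas AMBP, with 6 to 40 counts per library, and YTHDF3 were not (adjusted p = 0.502 and 0.640).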

How the data were processed

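RNA was sequenced as single reads of 100 bases from amplified cDNA, per the labels' protocols. STAR 2.5.3a, HTSeq 0.6p1, edgeR 3.18.1 and the build galGal5 are named, per the submitters' processing notes; the annotation is not given in the sources used here. The authors deposited raw counts per gene symbol, which were the input here. The authors also deposited a CPM table of 4752 genes, equal to the counts times 1 factor per library, and a table of log2 fold changes with p-values for a paired comparison; the CPM used here differed from the deposited CPM by at most 0.214%.

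Counts were tested with edgeR 4.0.16 (R 4.3.3): filterByExpr by treatment (minimum count 10, minimum total 15), TMM, and the quasi-likelihood F-test with pair and treatment in the model. Standard errors and intervals were derived from the F statistic. Log2 CPM used a prior count of 2. limma-voom (limma 3.58.1) and DESeq2 1.42.0 were alternatives, beside other scalings, no filter, no pair term and each pair left out.

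The pairing comes from the study's description. Each library was centred on the mean of its group in log2 CPM, and these residuals correlated at 0.289, 0.248 and 0.338 in pairs 1, 3 and 4. No replicates agreed within sampling noise (chi-square per degree of freedom at least 49.2). Nothing says that embryos came from separate clutches, so p-values apply to these libraries only, and counting errors cover counting only. The quasi-likelihood test draws each gene's spread toward a value shared over genes. Its p-values, standard errors and intervals thus do not rest on that gene's pairs alone. For EPHA3 the interval was -0.35 to 0.22, while the log2 ratios of pairs 1 and 3 were 0.40 and -0.64. For EFNB2 it was 0.95 to 1.44, while these ratios were 1.59 and 0.80.

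The members and lists were chosen with earlier results of these data known. All members and family genes in the table are named, of each pathway list those called and up to 3 by smallest p, and 3 genes most like the member of smallest p. The cell type marker lists were reported by their called genes and summed levels, together with some genes that were not called or not tested. RefSeq GRCg7b was used only for names and for the chromosome of EFNA5.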

Additional observations from a re-analysis of the deposited data

How the results depend on the processing

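Over 10 alternatives the 9 members gave 90 values, of which 83 kept their direction and side of the threshold. EFNB2 was called in all 10, with log2 fold changes of 1.00 to 1.39 and adjusted p-values up to 0.0354. The number of members called, 2, was 1 with no replicate block and 1 to 2 when a pair was left out. EPHB2 was called in 7 of 10, with adjusted p-values from 0.000312 to 1.00. Its call was lost when pair 3, pair 4 or the block was omitted. The block changed no other call among the members, and the other 7 were called in 0 of the 10. When a pair was left out, the log2 fold change ranged from -0.30 to 0.22 for EPHA3, from -0.13 to 0.068 for EPHA4, from -0.034 to 0.00031 for EPHA5, from -0.12 to 0.13 for EPHB6 and from -0.13 to 0.026 for TBX5. The sign turned when pair 3 was left out for EPHA3, EPHA4, EPHA5 and TBX5. It also turned for EPHA4 at 0.014 on omitting pair 4, and on omitting pair 1 for EPHB6 and for TBX5 at 0.019. The cause was not tested.

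Over all genes, 54 were called, 48 higher and 6 lower. With no block 7 were called, 7 higher and 0 lower. With no filter 85 were called and 15 were lower. DESeq2 called 88, 74 higher and 14 lower. Median-of-ratios scaling called 3 lower. Leaving out a pair gave 36 to 81 genes, 31 to 57 higher and 2 to 24 lower. The fits without a pair have fewer residual degrees of freedom. Calls between pairs numbered 5 to 7 of the members over 3 alternatives, against 6.

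Alternatives for the genes outside the members, for the ratio of EFNB2 to EFNB1 and for the list counts were chosen after seeing the data. FGF8 was called in 4 of 10. Without the block NGFR, BAMBI, SFRP1 and NR2E1 lost their calls, and without pair 3 SFRP1 and NR2E1 did. The mean log2 change of the ratio was 0.889 to 1.21 when a pair was left out. Depth limits EFNA2 most, with 76 counts in its lowest library.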
